A study of Mus musculus with 9 samples.

Results

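The 9 genes of the lipid barrier of mouse epidermis, the ceramide and lipoxygenase genes Alox12b, Aloxe3, Abca12, Cers3, Elovl4, Pnpla1, Smpd1, Ugcg and Sdr9c7, were described across 9 skin RNA libraries. They were taken by name from a list that applied no measured value but was chosen with earlier results of these data known. They are 9 of the 49585 genes in the deposited tables. All 9 were among the 14415 genes with enough reads to be tested. The libraries comprised 3 labelled IL-6 KO (genotype IL-6 -/-, strain C57BL/6), 3 of wild-type BALB/c mice and 3 of wild-type C57BL/6 mice. All mice came from Jackson Laboratory at 4 to 5 weeks of age and were 6 weeks old at the start. After shaving on day 0 they were left untreated for 7 days, and skin was taken on day 8. The labels mention 6 IL-6 KO, 3 BALB/c and 3 C57BL/6 mice but not which mouse each library came from, so a p-value here reflects only how far libraries of one label spread, which may be technical.

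The outermost layers of the epidermis hold water by means of sheets of lipid between dead cells, and ceramides with very long acyl chains are the main building blocks of those sheets. Elovl4 lengthens the fatty acid, Cers3 joins it to a sphingoid base, and Pnpla1 attaches linoleate to its far end, which gives an acylceramide. Ugcg adds glucose, Abca12 loads the product into the lamellar granules that are emptied at the top of the granular layer, and Smpd1, the acid sphingomyelinase, frees ceramide from sphingomyelin. Alox12b and Aloxe3 then oxidise the linoleate in consecutive steps, and Sdr9c7 oxidises their product further, after which the lipid can be bound to the protein envelope of the cell. Loss of function of several of these genes causes inherited scaling disorders (ichthyoses) in people.

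Total exon reads per library were 3843953 to 4476346 in the IL-6 KO-labelled libraries, 6115739 to 6242332 in BALB/c and 6083876 to 6882193 in C57BL/6. Il6, the gene named by the label, had 6, 24 and 1 total exon reads in the IL-6 KO-labelled libraries, against 0, 2 and 0 in BALB/c and 2, 1 and 0 in C57BL/6. Of these, 2, 6 and 1 reads spanned exon junctions in the IL-6 KO-labelled libraries, against 0 in each BALB/c library and 2, 1 and 0 in C57BL/6. A further 7, 12 and 5 reads lay in introns of Il6 in the IL-6 KO-labelled libraries, against 0 in all other libraries. In a fit without the filter on low counts, Il6 was called higher in the IL-6 KO-labelled libraries than in C57BL/6 and BALB/c (edgeR adjusted p = 0.0381 and 0.0272), although IL-6 KO replicate 3 overlapped with both. These libraries are therefore called by their label throughout. Which exon a read fell in is not part of the gene-level values. BALB/c replicate 2 stood apart with 130 reads of Xist, the RNA of the inactive X chromosome, where every other library had 5 or fewer. Markers of spinous, granular and basal epidermis were abundant in all 9 libraries. The summed spinous markers reached 3891, 17250 and 6257 CPM in the IL-6 KO-labelled libraries (CPM, reads scaled to the effective library size), 13000 to 14900 CPM in BALB/c and 8227 to 13450 CPM in C57BL/6. The tissue differed in other cell types. Against C57BL/6, 13 of 13 hair shaft markers, 8 of 8 inner root sheath markers, 6 of 6 markers of dividing cells and 5 of 5 melanocyte markers were called higher in the IL-6 KO-labelled libraries, and 12 of 12 skeletal muscle markers and 5 of 6 endothelial markers lower. Summed hair shaft markers were 17980, 3459 and 13580 CPM in the IL-6 KO-labelled libraries, 14.1 to 23.6 CPM in BALB/c, where Krt33b and Krt81 had 0 reads, and 21.2 to 129 CPM in C57BL/6. Summed muscle markers were 10130 to 11620 CPM in the IL-6 KO-labelled libraries, 29250 to 61390 CPM in BALB/c and 60170 to 109900 CPM in C57BL/6. Summed white adipocyte markers were 673 to 1698 CPM in the IL-6 KO-labelled libraries, 7481, 1817 and 1793 CPM in BALB/c and 1650 to 2398 CPM in C57BL/6, so BALB/c replicate 1 stood apart, and 4 of 7 were called lower in the IL-6 KO-labelled libraries than in BALB/c. In whole skin, fewer cells of a type and less RNA per cell cannot be told apart, and the part of these markers in the differences below was not tested.

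**Figure D1:**
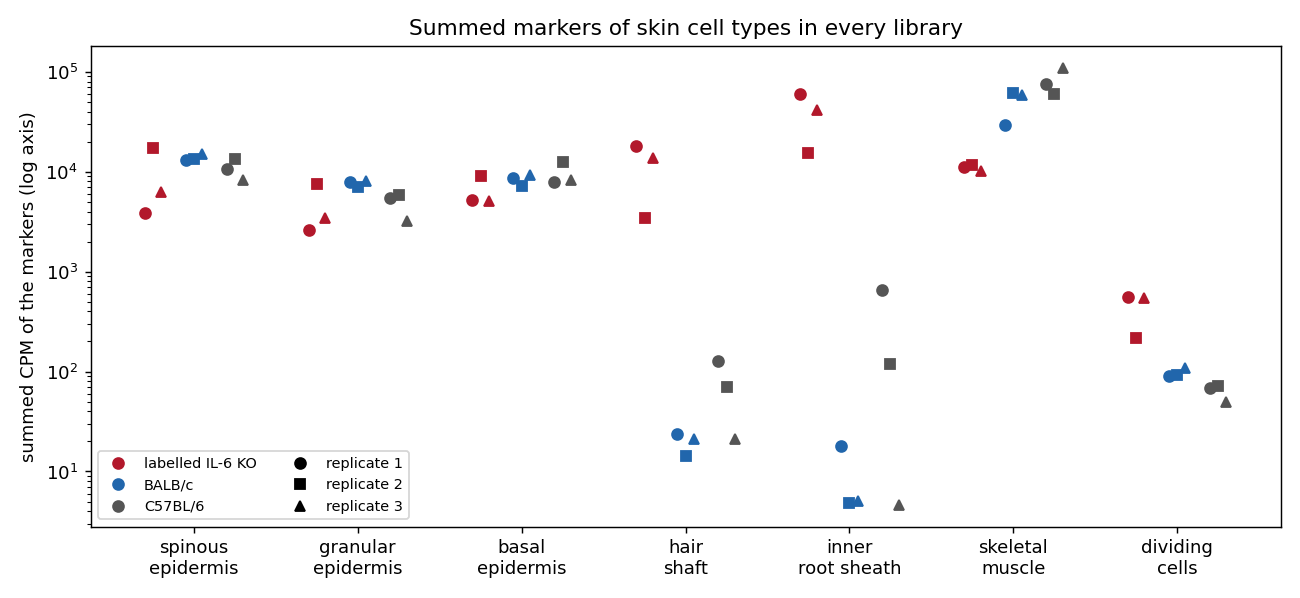
Summed level of the markers of 7 skin cell types in every library (vertical axis, CPM on a log scale; 1 point per library, colour for the group and shape for the replicate). Hair shaft and inner root sheath markers lie far higher in the 3 IL-6 KO-labelled libraries, among which replicate 2 has the lowest hair shaft sum (3459 CPM) and the highest spinous sum (17250 CPM).

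Of the 9 genes, 4 (Pnpla1, Cers3, Ugcg and Smpd1) were higher in the IL-6 KO-labelled libraries than in C57BL/6, by 1.60, 0.89, 0.62 and 0.46 on the log2 scale, and none was called lower. Across all genes tested, 35.2% were called in this comparison, 19.2% higher and 16% lower, so 4 of 9 is a share near the background. Against BALB/c, Pnpla1 and Ugcg were higher and Aloxe3 was lower, 3 of 9, where 37.3% of all genes were called (19.9% higher and 17.4% lower). Between BALB/c and C57BL/6 none of the 9 passed (edgeR's quasi-likelihood test, adjusted p threshold 0.05), and 3.41% of all genes did (1.63% higher and 1.78% lower). 1 gene, Elovl4, had an unadjusted p under 0.05 there, and DESeq2 also called 0. The median log2 difference of the 9 genes was -0.03 for the IL-6 KO-labelled libraries against C57BL/6, -0.38 for the IL-6 KO-labelled libraries against BALB/c and 0.32 for BALB/c against C57BL/6, beside medians over all tested genes of 0.01, 0.01 and -0.01. The 3 comparisons share their libraries pairwise and are not independent.

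**Figure D2:**
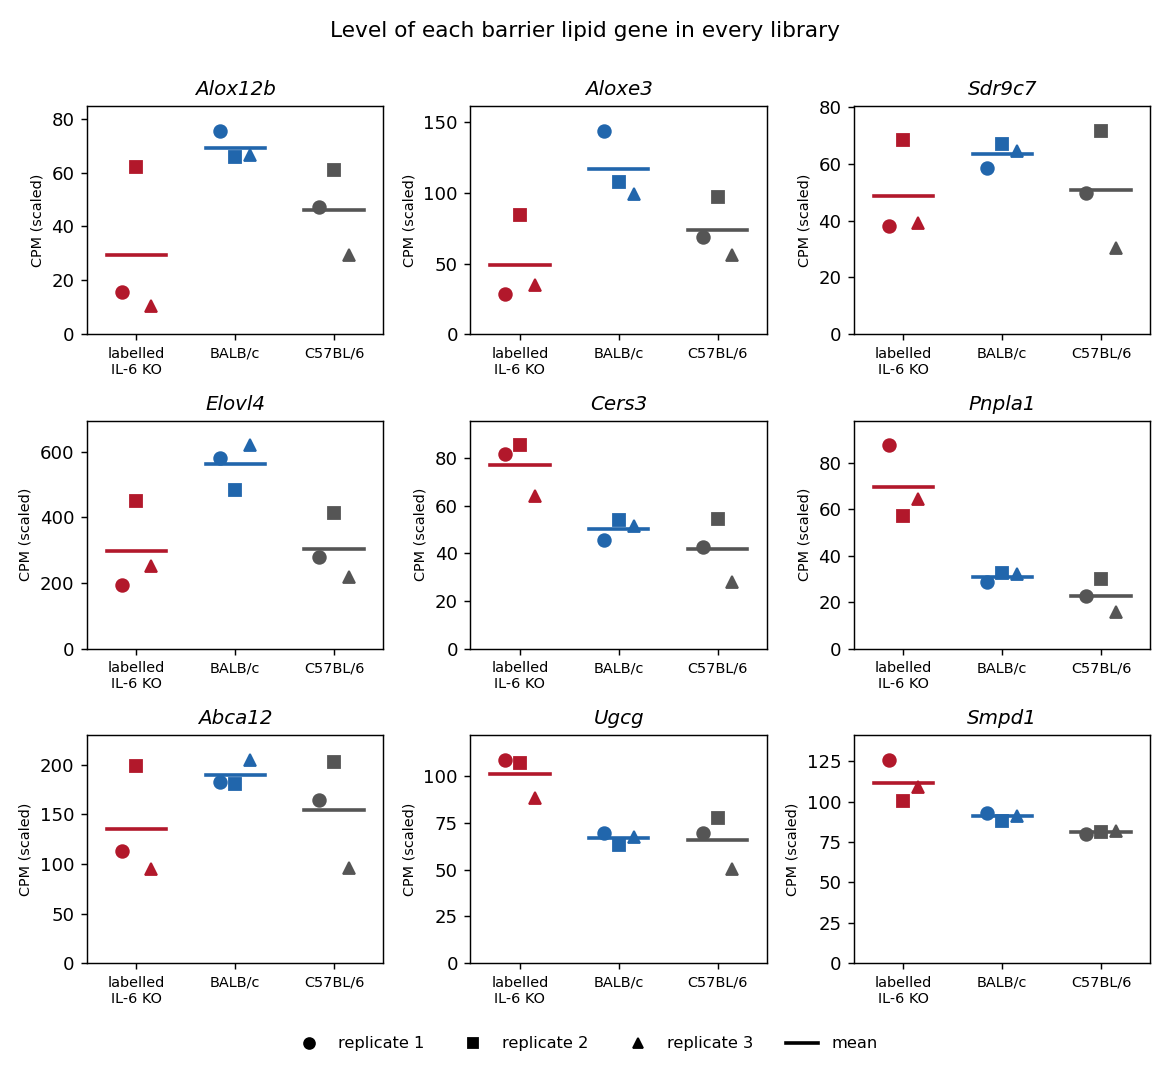
Level of each gene in every library (vertical axis, CPM from 0; 1 point per library, shapes mark replicates 1 to 3, bars the group means). Pnpla1, Cers3, Ugcg and Smpd1 lie higher in all 3 IL-6 KO-labelled libraries than in every other library, whereas in Alox12b, Aloxe3, Sdr9c7, Elovl4 and Abca12 replicate 2 of that label lies well above replicates 1 and 3.

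The genes that assemble the acylceramide went apart. Pnpla1, the acyltransferase that adds linoleate, stood at 87.5, 57.2 and 64.3 CPM in the IL-6 KO-labelled libraries, at 28.7, 32.4 and 31.9 CPM in BALB/c and at 22.7, 29.8 and 15.8 CPM in C57BL/6. Every IL-6 KO-labelled library was above every other library. The difference was 1.60 ± 0.235 (log2, SE) against C57BL/6 (edgeR adjusted p = 0.00121) and 1.16 ± 0.23 against BALB/c (edgeR adjusted p = 0.00458), and both calls held in all 20 alternative settings. Among these settings, the deposited Expression value column is not alike between the groups, as described under processing. Pnpla1 lies at chr17:28858411-28890308 (GRCm38, plus strand). It overlaps Pnpla1os, which had 2 reads in all, and 91.3% of its exon reads mapped uniquely, while the other 8 genes had 100% unique reads.

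Cers3, the ceramide synthase for very long acyl chains, had 82.0, 85.5 and 64.1 CPM in the IL-6 KO-labelled libraries, 45.5, 54.2 and 51.4 CPM in BALB/c and 42.7, 54.4 and 27.9 CPM in C57BL/6. Here too the IL-6 KO-labelled libraries did not overlap with the others. The difference from C57BL/6 was 0.89 ± 0.22 (edgeR adjusted p = 0.0141), and the difference from BALB/c, 0.62 ± 0.22, missed the threshold (edgeR adjusted p = 0.0546). The difference from BALB/c passed in 6 of 20 alternatives, among them the fits without C57BL/6 replicate 2 (0.61, adjusted p = 0.0334) and without C57BL/6 replicate 3 (0.59, adjusted p = 0.0206). Cers3 lies at chr7:66743504-66823691 (GRCm38, plus strand).

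Elovl4, the elongase that makes the ultra-long chains, followed another pattern. It had 195, 452 and 251 CPM in the IL-6 KO-labelled libraries, against 580, 485 and 620 CPM in BALB/c and 281, 415 and 218 CPM in C57BL/6. All 3 BALB/c libraries were above all others. The IL-6 KO-labelled libraries differed from C57BL/6 by -0.03 ± 0.33 (edgeR adjusted p = 0.961) and from BALB/c by -0.91 ± 0.33 (edgeR adjusted p = 0.0542), and BALB/c differed from C57BL/6 by 0.88 ± 0.33 (unadjusted p = 0.0235 in edgeR, adjusted p = 0.183). The difference from BALB/c passed in 6 of 20 alternatives, including the fits without IL-6 KO replicate 2 (-1.33, with an adjusted p = 0.00467) and without C57BL/6 replicate 2 (-0.91, adjusted p = 0.0446), and was -0.07 when libraries were scaled to the spinous markers. Elovl4 lies at chr9:83778692-83806277 (GRCm38, minus strand).

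Pnpla1 and Cers3 are the synthesis genes that were called higher, so the stretches just before their first exons are shown, from RefSeq promoters of GRCm38.p6, which held 8 of the 9 genes (Aloxe3 is named only). Each runs up to the base before the gene's first base in the deposited tables, and capitals mark a match to any of 6 motifs searched on both strands.
Pnpla1, chr17:28858161-28858410, plus strand: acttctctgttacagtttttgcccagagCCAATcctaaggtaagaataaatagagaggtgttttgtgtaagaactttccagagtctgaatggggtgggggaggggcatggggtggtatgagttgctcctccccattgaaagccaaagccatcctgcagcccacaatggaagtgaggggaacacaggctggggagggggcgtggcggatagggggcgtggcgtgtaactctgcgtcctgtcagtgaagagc
Cers3, chr7:66743254-66743503, plus strand: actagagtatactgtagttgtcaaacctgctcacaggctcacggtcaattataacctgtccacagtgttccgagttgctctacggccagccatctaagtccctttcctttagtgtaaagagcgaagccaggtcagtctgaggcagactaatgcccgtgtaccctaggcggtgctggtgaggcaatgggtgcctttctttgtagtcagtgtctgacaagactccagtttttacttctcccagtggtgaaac
In the Pnpla1 stretch the capitals are a CCAAT box, 222 bases before the RefSeq start, a run of letters present in 37.4% of the 32851 promoters of 300 bases in that table. The Cers3 window held none of the 6 motifs. Besides CCAAT, the search covered the TATA box TATAAA, found in 13.6% of promoters, and the AP-1 motif, found in 7.81%. It also covered the grainyhead-like motif AACCGGTT (0.146%), the Kruppel-like motif GGGTGTG (7.95%) and the PPAR response element (0.0396%). A match is a description of the letters and not a site.

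Of the genes for glucosylation, transport and release, Ugcg and Smpd1 were higher in the IL-6 KO-labelled libraries and Abca12 was not called. Ugcg, the glucosylceramide synthase, had 109, 107 and 88.3 CPM in the IL-6 KO-labelled libraries, 69.4, 63.2 and 67.6 CPM in BALB/c and 69.3, 77.4 and 50.3 CPM in C57BL/6. The lowest IL-6 KO-labelled library was above the highest of the other 6. The difference was 0.62 ± 0.17 against C57BL/6 (edgeR adjusted p = 0.0175) and 0.60 ± 0.17 against BALB/c (edgeR adjusted p = 0.0194). The call against C57BL/6 was lost without IL-6 KO replicate 1 (0.57, with an adjusted p = 0.0602) and without C57BL/6 replicate 3 (0.44, adjusted p = 0.0507), and with libraries scaled to the spinous markers it was 1.39 and missed the threshold (adjusted p = 0.109). The call against BALB/c was lost without IL-6 KO replicate 1 (0.55, with an adjusted p = 0.0643) and without BALB/c replicates 1, 2 or 3 (0.60, 0.54 and 0.595, adjusted p = 0.0505, 0.0815 and 0.0619). Ugcg lies at chr4:59189257-59222833 (plus strand).

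Smpd1, which releases ceramide from sphingomyelin, had 126, 100.4 and 109 CPM in the IL-6 KO-labelled libraries, 93.3, 88.0 and 91.5 CPM in BALB/c and 80.1, 81.3 and 82.1 CPM in C57BL/6. The 3 groups did not overlap, and the highest C57BL/6 library was 1.025 times the lowest. Against C57BL/6 the difference was 0.46 ± 0.12 (edgeR adjusted p = 0.0136), which fell short of the threshold without IL-6 KO replicate 1 (0.37, with an adjusted p = 0.0535) and with spinous scaling (1.24, adjusted p = 0.16). Against BALB/c it was 0.30 ± 0.12 (edgeR adjusted p = 0.0688), and it passed without IL-6 KO replicate 2 (0.37, adjusted p = 0.0226). Smpd1 lies at chr7:105554360-105558389 (plus strand).

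Abca12, the lipid transporter of the lamellar granule, had 113, 199 and 94.9 CPM in the IL-6 KO-labelled libraries, against 183, 180 and 205 CPM in BALB/c and 165, 202.5 and 95.6 CPM in C57BL/6. The groups overlapped in every comparison. The IL-6 KO-labelled libraries differed by -0.18 ± 0.31 from C57BL/6 and by -0.48 ± 0.31 from BALB/c (edgeR adjusted p = 0.676 and 0.254), and the second passed without IL-6 KO replicate 2 (-0.865, adjusted p = 0.0307). Abca12 lies at chr1:71242276-71414910 (minus strand).

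Both lipoxygenase genes had their lowest values in replicates 1 and 3 of the IL-6 KO-labelled libraries, and the result turned on replicate 2. Alox12b, the 12R-lipoxygenase that acts before Aloxe3, stood at 15.6, 62.3 and 10.6 CPM in the IL-6 KO-labelled libraries, against 75.6, 65.8 and 66.5 CPM in BALB/c and 47.4, 61.1 and 29.5 CPM in C57BL/6. Replicate 2 of the IL-6 KO-labelled libraries was at the level of the wild types, and replicates 1 and 3 were below all other libraries. The difference was -0.63 ± 0.55 against C57BL/6 (edgeR adjusted p = 0.395) and -1.22 ± 0.55 against BALB/c (edgeR adjusted p = 0.107). Leaving out IL-6 KO replicate 2 moved the first to -1.83 (adjusted p = 0.00188) and the second to -2.415 (adjusted p = 0.000463). Because that library was the highest of its group, leaving it out lowers the group's mean by construction. Calls over all genes also rose in that fit, from 5068 to 6806 against C57BL/6 and from 5370 to 7044 against BALB/c. These counts also apply to Elovl4, Smpd1, Abca12 and Aloxe3 where they are given without that library.

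Aloxe3, which turns the hydroperoxide into an epoxyalcohol, had 28.3, 84.7 and 34.6 CPM in the IL-6 KO-labelled libraries, 144, 108 and 99.6 CPM in BALB/c and 69.2, 96.9 and 56.3 CPM in C57BL/6. Replicate 2 was again the high one of its group, but below every BALB/c library. The difference was -0.59 ± 0.38 against C57BL/6 (edgeR adjusted p = 0.258) and -1.25 ± 0.385 against BALB/c (edgeR adjusted p = 0.0305). Without IL-6 KO replicate 2 the first was -1.24 and passed (adjusted p = 0.00529). The call against BALB/c was lost in 8 of 20 alternatives, among them leaving out IL-6 KO replicate 1 (-0.97, adjusted p = 0.0941), IL-6 KO replicate 3 (-1.04, adjusted p = 0.113), BALB/c replicate 1 (-1.09, adjusted p = 0.0847) or BALB/c replicate 2 (-1.32, adjusted p = 0.0583), and it was -0.55 with libraries scaled to the spinous markers (adjusted p = 0.453). Aloxe3 (chr11:69125896-69149115) and Alox12b (chr11:69156989-69169792) lie on the same strand with 7873 bases and 0 other annotated genes between them.

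Sdr9c7, the dehydrogenase that follows the lipoxygenases, had 38.1, 68.4 and 39.3 CPM in the IL-6 KO-labelled libraries, against 58.4, 67.2 and 64.7 CPM in BALB/c and 49.8, 71.7 and 30.5 CPM in C57BL/6. The groups overlapped throughout. The IL-6 KO-labelled libraries differed by -0.06 ± 0.31 from C57BL/6 and by -0.38 ± 0.31 from BALB/c (edgeR adjusted p = 0.898 and 0.355). Sdr9c7 lies at chr10:127898518-127911761 (plus strand). The stretches before Alox12b and Sdr9c7, the first and the last enzyme of the oxidation, are shown in the same way.
Alox12b, chr11:69156822-69156988, plus strand: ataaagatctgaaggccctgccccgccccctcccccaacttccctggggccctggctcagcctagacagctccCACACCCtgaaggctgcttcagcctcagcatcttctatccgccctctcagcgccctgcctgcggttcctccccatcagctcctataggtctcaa
Sdr9c7, chr10:127898285-127898517, plus strand: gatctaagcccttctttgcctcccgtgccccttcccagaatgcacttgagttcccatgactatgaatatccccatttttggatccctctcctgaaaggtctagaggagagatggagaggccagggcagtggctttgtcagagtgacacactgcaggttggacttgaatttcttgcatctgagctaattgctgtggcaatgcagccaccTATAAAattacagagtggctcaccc
Capitals mark the reverse complement of the Kruppel-like GGGTGTG in Alox12b, 177 bases before the RefSeq start, and a TATA box in Sdr9c7, 42 bases before it. A CCAAT box was also found in Smpd1, 101 bases before the start on the reverse strand, and in Elovl4, 25 bases after it. Ugcg was not searched, because its promoter window held too few bases before the gene's first base in the deposited tables.

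**Figure D3:**
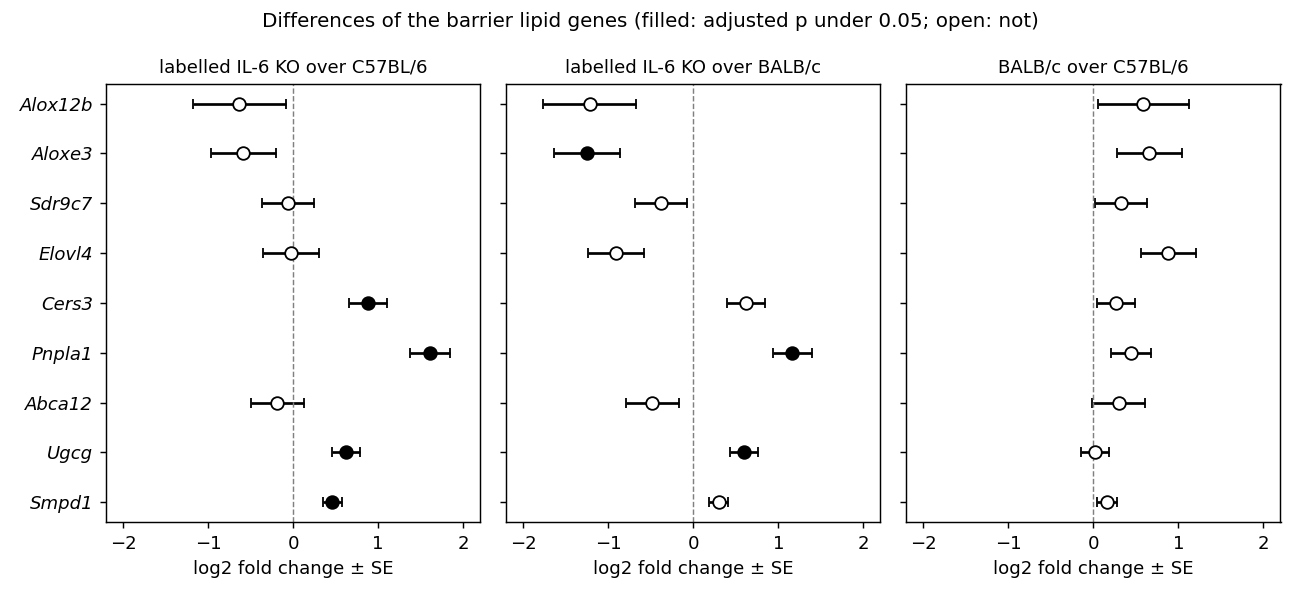
Log2 difference of each gene in the 3 comparisons (horizontal axis, log2 fold change; bars are 1 SE of the edgeR fit, filled points have an adjusted p under 0.05). Pnpla1 lies highest in both comparisons of the IL-6 KO-labelled libraries (1.60 and 1.16), and Alox12b and Aloxe3 lie lowest, whereas all 9 points are above 0 for BALB/c over C57BL/6, none of them filled.

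For BALB/c against C57BL/6, all 9 differences were above 0 and ranged from 0.02 in Ugcg to 0.88 in Elovl4 (all adjusted p above the threshold in edgeR). Alox12b, Aloxe3, Elovl4 and Smpd1 did not overlap between these groups, 4 of 9 genes, where 30.2% of all genes tested did not overlap (14.6% higher and 15.6% lower). The differences of Alox12b and Aloxe3 were 0.59 ± 0.53 and 0.66 ± 0.38, and that of Pnpla1 was 0.44 ± 0.23. C57BL/6 replicate 3 had the lowest value of its group in 8 of the 9 genes, all but Smpd1. Of the 9 genes, 4 did not overlap between the IL-6 KO-labelled libraries and C57BL/6, all higher (47.5% of all genes, 24.6% higher and 23% lower), and 7 between the IL-6 KO-labelled libraries and BALB/c, 4 higher and 3 lower (50.7% of all genes, 26.7% higher and 24% lower).

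Compared per length, the order of the genes differed between libraries. In RPKM (reads scaled to exon length and library size, as deposited), Elovl4 was highest of the 9 in every library, with 58.4, 151 and 80.5 RPKM in the IL-6 KO-labelled libraries, 171, 142 and 186.5 RPKM in BALB/c and 80.5, 128 and 58.9 RPKM in C57BL/6. Pnpla1 was lowest of the 9 in all BALB/c and C57BL/6 libraries, at 5.69 to 6.48 and 2.87 to 6.20 RPKM, and was also lowest in IL-6 KO replicate 2, at 12.9 RPKM. It ranked 5 of 9 in replicates 1 and 3 of that label, at 17.6 and 13.9 RPKM. The RPKM ratio of Alox12b to Pnpla1 was 0.329, 2.01 and 0.304 in the IL-6 KO-labelled libraries, against 4.87, 3.75 and 3.84 in BALB/c and 3.84, 3.78 and 3.45 in C57BL/6. Every IL-6 KO-labelled library thus had a lower ratio than every other library. Pnpla1 alone already separated these libraries from the others, so the ratio is no separate result. The ratios of Elovl4 to Pnpla1 and to Cers3 also lay lower, but that of Alox12b to Aloxe3 overlapped. It was 0.807 to 1.94 in the IL-6 KO-labelled libraries, against 1.38 to 1.80 in the others. By group mean, Smpd1 (32.1 ± 1.89 RPKM, SD, n = 3), Cers3 (22.8 ± 3.71 RPKM) and Ugcg (18.7 ± 2.14 RPKM) followed Elovl4 in the IL-6 KO-labelled libraries. In BALB/c the next were Alox12b (25.5 ± 1.96 RPKM) and Smpd1 (24.4 ± 0.937 RPKM), which did not differ beyond their spread, and in C57BL/6 Smpd1 (21.2 ± 1.35 RPKM) and Alox12b (16.8 ± 6.76 RPKM), whose ranges overlapped.

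Reads within introns gave a second readout of the same genes, with 81 to 304 intronic reads per gene over all libraries and 12 for Smpd1, too few to test. Pnpla1 had 29, 23 and 36 intronic reads in the IL-6 KO-labelled libraries, against 24, 21 and 15 in BALB/c and 3, 11 and 10 in C57BL/6, with 340002 to 428187, 455777 to 607322 and 370010 to 498589 intronic reads in all genes of those groups. The difference from C57BL/6 was 2.08 ± 0.38 (edgeR adjusted p = 0.00109) and passed in all 12 alternatives. Ugcg was also higher in the IL-6 KO-labelled libraries than in C57BL/6 by intronic reads (0.86 ± 0.27, edgeR adjusted p = 0.03). That made 2 of the 8 genes tested, where 23.4% of 10378 genes were called (11.9% higher). Ugcg lost its call without IL-6 KO replicate 1 (0.82, adjusted p = 0.0883), IL-6 KO replicate 3 (0.83, adjusted p = 0.0915), C57BL/6 replicate 1 (0.86, adjusted p = 0.0683) or C57BL/6 replicate 3 (0.75, adjusted p = 0.09). Without IL-6 KO replicate 2, Alox12b (-3.15, adjusted p = 0.000475) and Aloxe3 (-1.17, adjusted p = 0.0106) passed as lower. The share of all genes called by intronic reads in that fit was not counted. With all libraries, intronic Cers3 was not called against C57BL/6 (0.53 ± 0.36, edgeR adjusted p = 0.31) or BALB/c (0.42 ± 0.35, edgeR adjusted p = 0.425). Against BALB/c, neither intronic Ugcg (0.34 ± 0.25, edgeR adjusted p = 0.372) nor intronic Aloxe3 (-0.62 ± 0.37, edgeR adjusted p = 0.25) was called.

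Elovl4 was the gene in which intronic reads set BALB/c apart. It had 8, 16 and 19 intronic reads in the IL-6 KO-labelled libraries, against 48, 41 and 44 in BALB/c and 11, 27 and 6 in C57BL/6. BALB/c was above C57BL/6 by 1.49 ± 0.345 (edgeR adjusted p = 0.0173), the 1 gene of 8 called there (6.47% of all genes, 3.8% higher). The IL-6 KO-labelled libraries were below BALB/c by -1.28 ± 0.35 (edgeR adjusted p = 0.0148), again 1 of 8 (23.4% of all genes, 12.2% lower). The first call was lost when BALB/c replicate 3 was left out (1.39, adjusted p = 0.0724), likewise for C57BL/6 replicate 1 (1.28, adjusted p = 0.0785) or C57BL/6 replicate 3 (1.19, adjusted p = 0.0839). The second was lost without IL-6 KO replicate 1 (-1.08, adjusted p = 0.0664) or BALB/c replicate 3 (-1.18, adjusted p = 0.0504). Intronic Pnpla1 missed the threshold against BALB/c (0.92 ± 0.33, adjusted p = 0.0551). It passed without IL-6 KO replicate 2 (1.13, adjusted p = 0.0205), C57BL/6 replicate 1 (0.95, adjusted p = 0.0224) or C57BL/6 replicate 3 (0.95, adjusted p = 0.0379), as did Alox12b (-3.46, adjusted p = 0.000134) and Aloxe3 (-1.41, adjusted p = 0.00256) without IL-6 KO replicate 2.

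Because the amount of epidermis in a piece of skin can vary, each gene was also set against the spinous markers Krt1, Krt10, Krtdap, Dsg1a, Dsc1 and Sbsn of the same library. These markers did not move together: against C57BL/6, Dsc1 was called higher (2.01) and Sbsn lower (-1.25) in the IL-6 KO-labelled libraries. Of 7 granular markers 2 were called higher, and of 7 basal markers 3 lower (19.2% and 16% of all genes). Against BALB/c, 2 of 7 granular and 1 of 7 basal markers were called lower (17.4% of all genes), and 0 of 6 spinous markers were called. A ratio therefore also moves with its denominator. Pnpla1 had 22.5, 3.32 and 10.3 reads per 1000 spinous marker reads in the IL-6 KO-labelled libraries, against 2.204, 2.424 and 2.145 in BALB/c and 2.141, 2.218 and 1.918 in C57BL/6. Cers3 had 21.1, 4.96 and 10.3 in the IL-6 KO-labelled libraries, against 3.50, 4.05 and 3.45 in BALB/c and 4.02, 4.05 and 3.39 in C57BL/6. Both ratios were higher in every IL-6 KO-labelled library than in any other, with log2 differences from C57BL/6 of 2.13 and 1.43 (exact two-sided permutation test, p = 0.1, the smallest that 3 against 3 allow). They were the 2 of 9 genes without overlap against C57BL/6 (12.5% of all genes, 7.96% higher and 4.56% lower). Against BALB/c, Pnpla1, Cers3 and Ugcg were higher and Alox12b lower without overlap, 4 of 9 genes (20.8% of all genes, 17.5% higher and 3.27% lower).

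Alox12b had 4.01, 3.61 and 1.70 reads per 1000 spinous marker reads in the IL-6 KO-labelled libraries, against 5.82, 4.92 and 4.46 in BALB/c and 4.46, 4.55 and 3.59 in C57BL/6. On this scale replicate 2 no longer stood above its group. Aloxe3 had 7.27, 4.91 and 5.53 in the IL-6 KO-labelled libraries, against 11.1, 8.07 and 6.68 in BALB/c and 6.51, 7.21 and 6.84 in C57BL/6, and overlapped in every comparison. Abca12, Sdr9c7, Smpd1 and Elovl4 overlapped between the IL-6 KO-labelled libraries and both other groups. For BALB/c against C57BL/6, Elovl4 was higher (40.8 ± 4.25 and 27.9 ± 2.52, SD, n = 3 each) and Ugcg lower (4.87 ± 0.418 and 6.13 ± 0.384) without overlap, 2 of 9 genes (33.4% of all genes, 3.34% higher and 30.1% lower). Set against basal markers, Ugcg was instead 0.19 above C57BL/6 on the log2 scale, with overlap. The summed granular markers, the layer in which most of these genes act, were 2618, 7477 and 3409 CPM in the IL-6 KO-labelled libraries, 7103 to 8112 CPM in BALB/c and 3211 to 5848 CPM in C57BL/6. Against them, Alox12b and Aloxe3 were lower than in C57BL/6 without overlap (log2 differences -0.81 and -0.52) and Cers3 and Pnpla1 higher (1.14 and 1.84; exact permutation p = 0.1 for each of the 4, the smallest possible), where 16.5% of all genes did not overlap (7.18% higher and 9.32% lower). Against basal markers, 6 of 9 genes were higher than in C57BL/6 without overlap in the IL-6 KO-labelled libraries (32% of all genes, 26.2% higher). In BALB/c, 4 were lower than in C57BL/6 without overlap against granular markers (58.7% of all genes, 57.1% lower) and 6 were higher against basal markers (15.7% of all genes, 12% higher).

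**Figure D4:**
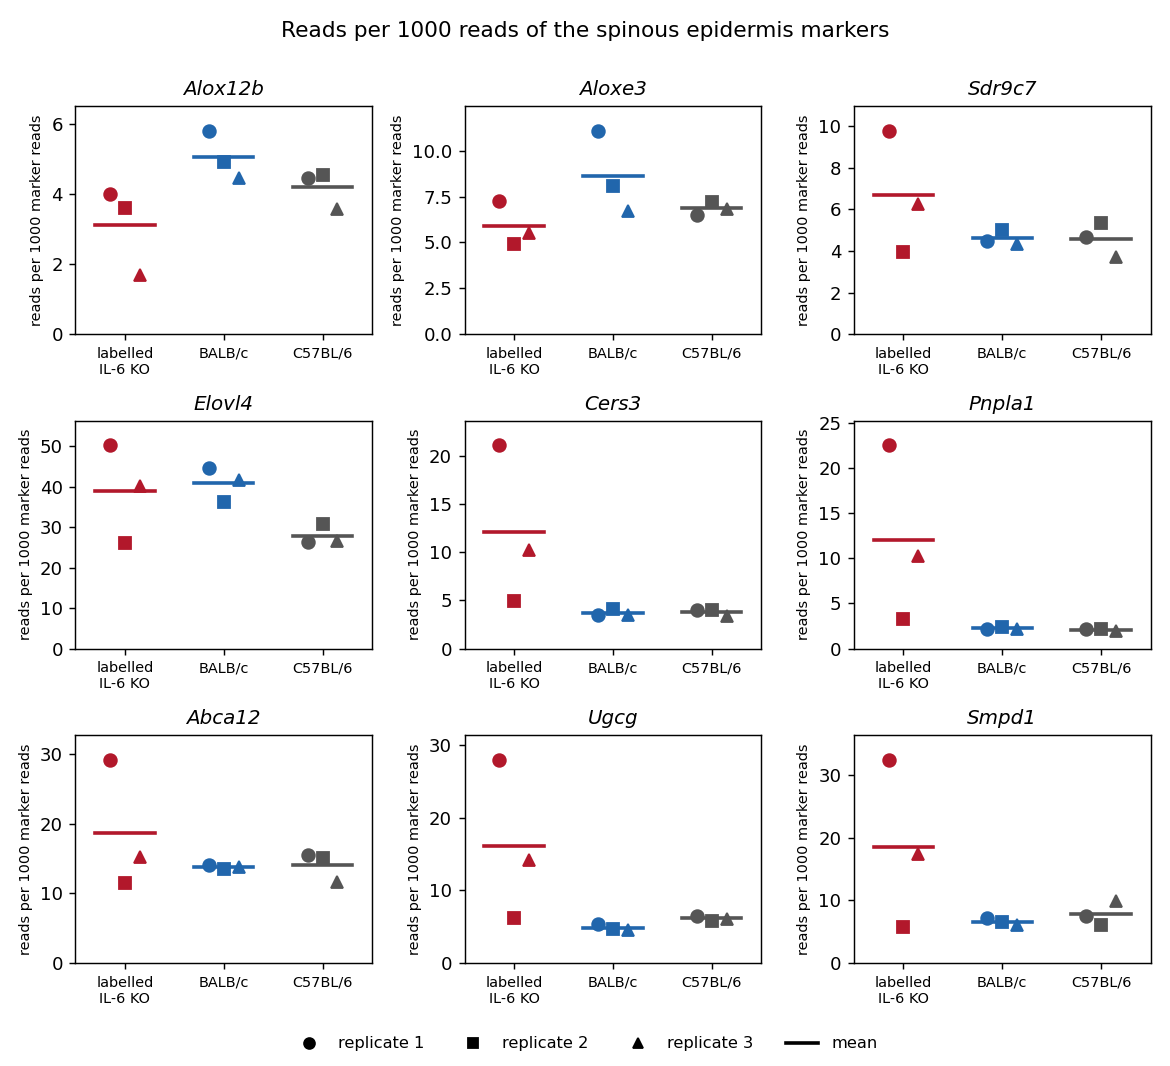
Reads of each gene per 1000 reads of the 6 spinous epidermis markers in the same library (vertical axis from 0; points, shapes and bars as in the plot of levels). Cers3 and Pnpla1 lie higher in all 3 IL-6 KO-labelled libraries than elsewhere, replicate 1 most (21.1 and 22.5). Replicate 2 of that label lies between replicates 1 and 3 in Alox12b and below both in Aloxe3.

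Over the 9 libraries the members fell into different profiles. The measure was the root mean square difference of log2 CPM centred on each gene's mean, among 13569 genes, a description in which genes share the same libraries. Abca12 and Sdr9c7 differed by 0.1325, and each was among the 4 genes closest to the other. Cers3 and Ugcg differed by 0.1825 and Alox12b and Aloxe3 by 0.344, while Alox12b and Pnpla1 differed by 1.47. The 3 closest genes outside the list were Tgm1 (0.094), Skil (0.103) and Ptbp3 (0.1155) for Pnpla1, and Rhod (0.121), Lypd3 (0.132) and Cdsn (0.133) for Cers3. For Ugcg they were Hmox1 (0.0378), Cdk13 (0.0607) and Cfap43 (0.0899), for Smpd1 Atpif1 (0.0455), Rps27a (0.0476) and Wtap (0.0522), and for Aloxe3 Aif1l (0.151), Klk11 (0.159) and Eps8l1 (0.192).

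The other genes of the pathway were read from 6 lists of 87 genes, 85 of which were tested. In the IL-6 KO-labelled libraries, 23 rose and 9 fell relative to C57BL/6, while 17 rose and 12 fell relative to BALB/c. These 32 and 29 of 85 genes are shares near those of all genes tested, 35.2% (19.2% higher and 16% lower) and 37.3% (19.9% higher and 17.4% lower). Of the genes for the sphingoid base and ceramide synthesis, 6 of 16 were higher and 1 lower against C57BL/6. Sptssb, a small subunit of serine palmitoyltransferase, had 27.2, 4.48 and 17.4 CPM in the IL-6 KO-labelled libraries, 0 in all BALB/c libraries and 0.154, 0 and 0 CPM in C57BL/6. Degs2, which hydroxylates or desaturates the sphingoid base, averaged 10.2 ± 2.07 CPM in the IL-6 KO-labelled libraries, 3.24 ± 1.43 CPM in BALB/c and 2.32 ± 0.347 CPM in C57BL/6 (SD, n = 3 each), a difference of 2.13 ± 0.35 against C57BL/6 (edgeR adjusted p = 0.00196). Cers1, a ceramide synthase known from brain and muscle, was the one that was lower, by -2.83 ± 0.51 (edgeR adjusted p = 0.00292). All 12 muscle markers were lower too, and the part of muscle in the Cers1 difference was not tested. Sptlc1, a large subunit of serine palmitoyltransferase, was higher by 0.55 ± 0.12 (edgeR adjusted p = 0.00813).

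In fatty acid elongation and acylceramide assembly, 4 of 17 genes rose and 2 fell relative to C57BL/6, while 4 rose and 4 fell relative to BALB/c, beside 35.2% and 37.3% of all genes called in either direction. Elovl7, an elongase of long chains, averaged 94.0 ± 6.58 CPM in the IL-6 KO-labelled libraries, 44.0 ± 3.49 CPM in BALB/c and 35.6 ± 13.3 CPM in C57BL/6. Its difference was 1.40 ± 0.24 against C57BL/6 and 1.09 ± 0.24 against BALB/c (edgeR adjusted p = 0.00236 and 0.00681). Elovl3, an elongase of sebaceous gland and hair follicle that is also on the sebaceous marker list, averaged 66.9 ± 22.4 CPM in the IL-6 KO-labelled libraries, 37.4 ± 11.2 CPM in BALB/c and 10.6 ± 1.57 CPM in C57BL/6. It was higher than in C57BL/6 by 2.65 ± 0.30 (edgeR adjusted p = 0.000522). Fa2h, which hydroxylates the fatty acid, was lower than in BALB/c (-1.47 ± 0.31, edgeR adjusted p = 0.00597), as was Dgat2, which makes triglyceride (-1.49 ± 0.45, edgeR adjusted p = 0.0278). Dgat2 had 116, 261 and 101.5 CPM in the IL-6 KO-labelled libraries, against 759.5, 292 and 294 CPM in BALB/c, where replicate 1 also had the highest adipocyte marker sum. Its call was lost without BALB/c replicate 1 (-0.90, with an adjusted p = 0.0937), IL-6 KO replicate 1 (-1.30, adjusted p = 0.0965) or IL-6 KO replicate 3 (-1.25, adjusted p = 0.102), and the part of adipocytes was not tested. The dehydratases of the elongation cycle went both ways: against C57BL/6, Hacd3 was higher (0.68 ± 0.11, edgeR adjusted p = 0.00206) and Hacd1 lower (-1.70 ± 0.38, edgeR adjusted p = 0.00842). All 12 muscle markers were lower in that comparison too, and the part of muscle in the Hacd1 difference was not tested. Between BALB/c and C57BL/6, 2 of the 85 genes passed, beside 3.41% of all genes. They were Elovl3 (1.81 ± 0.30, edgeR adjusted p = 0.0129) and the elongation cycle reductase Hsd17b12 (0.80 ± 0.18, edgeR adjusted p = 0.0481). Elovl3 lost that call without C57BL/6 replicate 1 (1.81) or C57BL/6 replicate 3 (1.72), and Hsd17b12 in 8 of the 9 fits that leave out 1 library, with differences of 0.60 to 0.93.

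Of the carriers and breakdown enzymes of sphingolipids, 4 of 20 were higher and 2 lower than in C57BL/6, beside 19.2% and 16% of all genes. Gla, the lysosomal alpha-galactosidase, was higher by 1.58 ± 0.24 against C57BL/6 and 1.17 ± 0.24 against BALB/c (edgeR adjusted p = 0.00143 and 0.0049). Sgpl1, the lyase that ends sphingosine phosphate, was higher by 0.72 ± 0.14 against C57BL/6 (edgeR adjusted p = 0.0039). Ugt8a, which makes galactosylceramide, averaged 1.16 ± 0.585 CPM in the IL-6 KO-labelled libraries, 8.76 ± 1.78 CPM in BALB/c and 4.31 ± 1.47 CPM in C57BL/6 and was lower against both (-1.85 ± 0.42 against C57BL/6, edgeR adjusted p = 0.00849). Among the other lipoxygenases and related enzymes, 2 of 10 were higher and 2 lower than in C57BL/6, again beside 19.2% and 16% of all genes. Alox8, the mouse 8-lipoxygenase, had 94.4, 23.2 and 81.1 CPM in the IL-6 KO-labelled libraries, 1.11, 0.998 and 2.27 CPM in BALB/c and 1.38, 0.447 and 0.743 CPM in C57BL/6. It had its lowest value of the group in replicate 2, the library in which Alox12b and Aloxe3 were highest, and differed by 6.23 ± 0.64 from C57BL/6 (edgeR adjusted p = 0.000458). Summed hair shaft (17980, 3459 and 13580 CPM) and inner root sheath markers (60040, 15470 and 41170 CPM) were also lowest in that replicate. Their part in the Alox8 values was not tested. Ephx1, an epoxide hydrolase, was lower (-1.20 ± 0.18 against C57BL/6, edgeR adjusted p = 0.00135).

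Of the cornified envelope proteins and crosslinkers, 5 of 10 rose and 1 fell relative to C57BL/6, while 4 rose relative to BALB/c, beside 19.2% and 19.9% of all genes called higher. The list shares Casp14, Cdsn and Asprv1 with the granular markers. Tgm1, the transglutaminase that crosslinks the envelope, had 188, 124 and 144 CPM in the IL-6 KO-labelled libraries, against 50.6, 76.9 and 39.4 CPM in C57BL/6, a difference of 1.45 ± 0.25 (edgeR adjusted p = 0.00252). Involucrin (Ivl), an early envelope protein, was higher by 1.40 ± 0.29 (edgeR adjusted p = 0.0059). Tgm3, a transglutaminase of granular layer and hair follicle, was higher by 4.01 ± 0.58 (edgeR adjusted p = 0.00117), and its 193, 43.2 and 159 CPM in the IL-6 KO-labelled libraries were again lowest in replicate 2. Envoplakin (Evpl), a scaffold of the envelope, was higher than in BALB/c by 1.16 ± 0.24 (edgeR adjusted p = 0.00547). Of 12 transcription factors of epidermal differentiation, 2 were higher and 1 lower than in C57BL/6, beside 19.2% and 16% of all genes. The higher ones were Ovol1 (2.00 ± 0.28, edgeR adjusted p = 0.00109) and Grhl1 (1.20 ± 0.24, edgeR adjusted p = 0.00486), and both were also higher than in BALB/c. Of the pathway genes named by rule, 7 of 25 lost their call against C57BL/6, and 13 of 26 their call against BALB/c, when some single library was left out.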

How the data were processed

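RNA from shaved skin was extracted with Tri-Reagent and sequenced from TruSeq libraries, per the labels' protocols. The authors deposited a gene table per library, on build GRCm38 per the submitters' processing notes, with counts of total exon reads, total gene reads and RPKM. For the aligner and the use of strand, nothing is stated in the sources used here. The table of C57BL/6 replicate 1 stacks 3 tables, of which the first was used. The deposited RPKM values followed from the total exon reads in 100% of genes above 50 reads.

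Total exon reads of the 9 libraries were fitted together in edgeR 4.0.16 (R 4.3.3; trimmed mean scaling, a minimum count of 10 and total of 15, quasi-likelihood test, Benjamini-Hochberg adjustment, threshold 0.05). Intronic reads (total gene reads minus total exon reads) were fitted alike. Ratios to marker reads were compared by exact two-sided permutation (scipy 1.17.1). The steps were tested on simulated data. Alternatives were DESeq2 1.42.0, other scalings and filters, the deposited Expression value column, a minimum log2 change of 0.5, a replicate block and leaving out each library. The Expression value column equalled the total exon reads in every gene of the IL-6 KO-labelled libraries. It differed from them in 5220 to 5598 genes of each BALB/c and C57BL/6 library, so that setting sets unlike counts against each other. The genes and lists were chosen with earlier results of these data known. From each pathway list and comparison, up to 3 called genes per direction were eligible by smallest adjusted p, and for each member called anywhere the 3 closest profiles were given.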

Additional observations from a re-analysis of the deposited data

How the results depend on the processing

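The count of the 9 genes called between the IL-6 KO-labelled libraries and C57BL/6, 4 in edgeR, was 2 with libraries scaled to the spinous markers and 1 with a minimum log2 change of 0.5. Against BALB/c it was 3, and became 6 (3 higher and 3 lower) with a replicate block, 5 (3 higher and 2 lower) in DESeq2 and 1 with the minimum change. Calls over all genes moved too, from 5068 against C57BL/6 to 2011 with spinous scaling and 2428 with the minimum change. Against BALB/c all-gene calls moved from 5370 to 4551 with the replicate block, 5699 in DESeq2 and 2545 with the minimum change. Pathway genes called were 32 against C57BL/6 (14 with spinous scaling, 15 with the minimum change) and 29 against BALB/c (14 with the minimum change). For BALB/c against C57BL/6 they were 2, and became 1 with library size alone, 7 in DESeq2, 1 with the Expression value column, 0 with spinous scaling (17 had an unadjusted p under 0.05 in edgeR), 1 with the minimum change and 4 in a fit of only these 2 groups. All-gene calls there were 491 in edgeR, 386 with library size alone, 1033 in DESeq2 and 380 with the Expression value column. With spinous scaling they were 307, with the minimum change 194 and in the fit of only these 2 groups 640. By intronic reads, 1 gene was called between the IL-6 KO-labelled libraries and BALB/c, and 2 with relative log scaling or library size alone. Ratios without overlap numbered 2 against spinous markers, 4 against granular and 6 against basal markers, both for the IL-6 KO-labelled libraries against C57BL/6 (12.5%, 16.5% and 32% of all genes) and for BALB/c against C57BL/6 (33.4%, 58.7% and 15.7% of all genes). Leaving out 1 library each, the 9 genes gave 2 to 6 calls for the IL-6 KO-labelled libraries against C57BL/6, 0 to 0 for BALB/c against C57BL/6 and 1 to 7 for the IL-6 KO-labelled libraries against BALB/c. Over all genes these fits gave 3238 to 6806, 167 to 977 and 3310 to 7044 calls by exon reads, in the same order. In the same order, pathway calls were 20 to 45, 0 to 11 and 15 to 42, intronic calls 1 to 4, 0 to 1 and 0 to 4, and ratios without overlap 2 to 6, 2 to 5 and 4 to 7. Shares of all genes were not counted for the intronic alternatives or for ratios with 1 library left out. Leaving out a library cannot make separate groups overlap, so these ratio counts can only stay or rise by construction.

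With spinous scaling, the sign turned in Rxra (0.092) and Tecr (0.34) against C57BL/6 and in Ephx1 (0.26), Tecr (0.78) and Hacd2 (0.18) against BALB/c, and Ugcg per basal marker reads turned to 0.19 for BALB/c against C57BL/6. That scaling moved the median of all genes to 0.69 against C57BL/6 and 1.09 against BALB/c, with 86.8% and 95.4% of calls higher. With library size alone, 67.8% of calls against C57BL/6 were higher, beside 54.6%. The cause of these shifts was not tested. Replicate numbers did not pair the libraries: correlations of same-numbered libraries were -0.212 to 0.0617, and 6 of 18 were best with their own number. The number of 3 libraries a group and the 50 to 475 exon reads of Alox12b limit the precision.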
